A study of Mus musculus with 10 samples.

Results

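The 7 sirtuin genes (Sirt1 to Sirt7) and 3 genes whose products act directly on SIRT1 (Ccar2, Rps19bp1 and Hic1) were followed in leukemic mouse spleens. They were picked by gene symbol, and all 10 were found among the 20813 genes of the deposited table. The samples are spleens of sub-lethally irradiated mice that had been injected intravenously with T-cell acute lymphoblastic leukemia (T-ALL, a cancer of immature T cells) carrying a conditional Sirt1 allele. Of the 10 samples, 5 are labelled Sirt1 deleted and 5 control, all on the C57BL/6 strain. The protocol names tamoxifen, 3 mg per mouse in corn oil, and corn oil alone as the vehicle. The titles begin with TMX in the 5 samples of the first group and with VEH in the 5 of the second, so drug and genotype cannot be told apart. All leukemias carried the conditional allele. The labels name neither the recombinase that acts on it nor the exons it removes, and do not say whether the 10 recipients received 1 leukemia or several. The p-values therefore measure the spread between these samples, part of which may be technical. Spleens were passed through a filter and red cells lysed, but leukemia cells were not sorted from host cells.

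Sirtuins are NAD-dependent enzymes that remove acetyl and other acyl groups from lysines, and because they consume NAD their activity is tied to metabolism. SIRT1 is mostly nuclear and deacetylates p53, FOXO factors, the NF-kB subunit RELA and the NOTCH1 intracellular domain. SIRT2 acts mainly in the cytoplasm on tubulin and other proteins, SIRT3, SIRT4 and SIRT5 are mitochondrial, SIRT6 is bound to chromatin and SIRT7 is enriched in the nucleolus. Among the regulators, CCAR2 (also called DBC1) binds the catalytic domain of SIRT1 and inhibits it, RPS19BP1 (also called AROS) binds SIRT1 and has been described as an activator, and HIC1 is a zinc-finger repressor of Sirt1 transcription.

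The promoters of Sirt1 and Rps19bp1 are shown because Sirt1 is the gene named by the genotype label and the site of HIC1 repression, and Rps19bp1 was the member with the smallest adjusted p. Each run gives the 250 bases before the RefSeq start site (GRCm38.p6, minus strand, 5′ to 3′). The Sirt1 window lies at chr10:63339036-63339285, inside the span of the GENCODE gene model, which reaches farther upstream, and that of Rps19bp1 at chr15:80264307-80264556. Capitals mark CACGTG, the E-box read by MYC and clock factors, and TGCC or its reverse complement GGCA, the core of the HIC1 motif.
Sirt1: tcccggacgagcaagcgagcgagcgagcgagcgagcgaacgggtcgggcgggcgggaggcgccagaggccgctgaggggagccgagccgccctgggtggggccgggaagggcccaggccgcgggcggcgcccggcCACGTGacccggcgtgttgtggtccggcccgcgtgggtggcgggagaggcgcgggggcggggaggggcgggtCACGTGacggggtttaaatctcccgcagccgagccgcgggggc
Rps19bp1: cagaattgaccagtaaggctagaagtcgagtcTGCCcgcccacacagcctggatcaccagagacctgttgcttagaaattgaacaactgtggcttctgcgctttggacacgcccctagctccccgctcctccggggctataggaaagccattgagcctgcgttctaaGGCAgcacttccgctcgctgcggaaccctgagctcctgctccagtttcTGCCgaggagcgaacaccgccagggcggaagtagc
The Sirt1 window holds 2 matches to CACGTG, which begin 115 and 43 bases before the start, and 0 matches to TGCC or GGCA. Of 32851 windows of the same length in the RefSeq table, 6.02% hold CACGTG at least once and 0.429% hold it at least 2 times, while 88.2% hold TGCC or GGCA. The Sirt1 window is 79.2% G or C, against a median of 52.4% over all windows, and the shares were not matched for this. The Rps19bp1 window holds 0 and 3 matches. Of the 12 windows found for 9 of the members, Sirt1's was the 1 with CACGTG. These are matches of letters, and factor binding was not measured.

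Values are counts per gene that the authors divided by DESeq normalization factors, called normalized counts here. They summed to between 33.7 and 34.5 M per sample (M, mega). A log2 difference is the mean log2(normalized count + 1) of the labelled Sirt1-deleted samples minus that of controls, which slightly understates changes of low genes. It was tested with limma over the 15276 genes with a mean of at least 10, and a gene was called where the Benjamini-Hochberg adjusted p was under 0.05. In bulk spleen, fewer cells of a type and less RNA per cell cannot be told apart. The summed count of 14 neutrophil markers was 28974 to 99982 in the labelled Sirt1-deleted samples and 9166 to 12658 in controls, with 13 of 14 called as higher, among them Ly6g (log2 difference 3.42) and Mmp9 (2.91). For 12 macrophage markers it was 6540 to 11571 against 3094 to 3559, with 10 called as higher, among them Lyz2 (1.94) and Fcgr1 (1.49). None of these neutrophil or macrophage markers was at 0 in any sample. The T lineage sum was 163690 to 182683 against 185036 to 199068, with 1 of 14 called as higher, the T cell receptor complex gene Cd3d (14064 to 14884 against 11553 to 13783), and 4 as lower, among them Rag1 (-0.61) and Cd8b1 (-0.47). Tcf7, also called as lower (-0.42), held the largest part of this sum, with means of 58426 and 77941. The difference of the sum was therefore mostly that of Tcf7, and 5 of the 14 had a positive log2 difference. No sample lacked the T cell marker Cd3d. Erythroid sums (39659 to 161233 against 43251 to 134741) overlapped, as did B cell sums (19253 to 26746 against 17938 to 21204), with 0 of 11 and 0 of 8 called by limma. Nearly all of the B cell sum was the immunoglobulin gene Ighm, with means of 20921 and 19266, so the sum says little of the other B cell markers. The part of these cell-type markers in the results below was not tested.

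Of the 10 members, 10 passed the filter on low values and 4 were called: Sirt7 and Rps19bp1 rose, and Sirt6 and Ccar2 fell. That is 40.0% of the members, beside 36.1% of all tested genes called in either direction (16.8% as higher and 19.4% as lower), so the share of members called was near the background. Of the 11762 genes with a mean of at least 50, which include all 10 members, 5125 were called, a larger share than over all tested genes. The groups did not overlap for 2 members, Rps19bp1 and Ccar2, where 24.0% of all tested genes did not overlap. The median size of the log2 difference, without its sign, was 0.19 over the members and 0.23 over all tested genes. Fold changes of the 4 called genes were small, from 18.3% lower for Sirt6 to 24.2% higher for Sirt7.

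**Figure D1:**
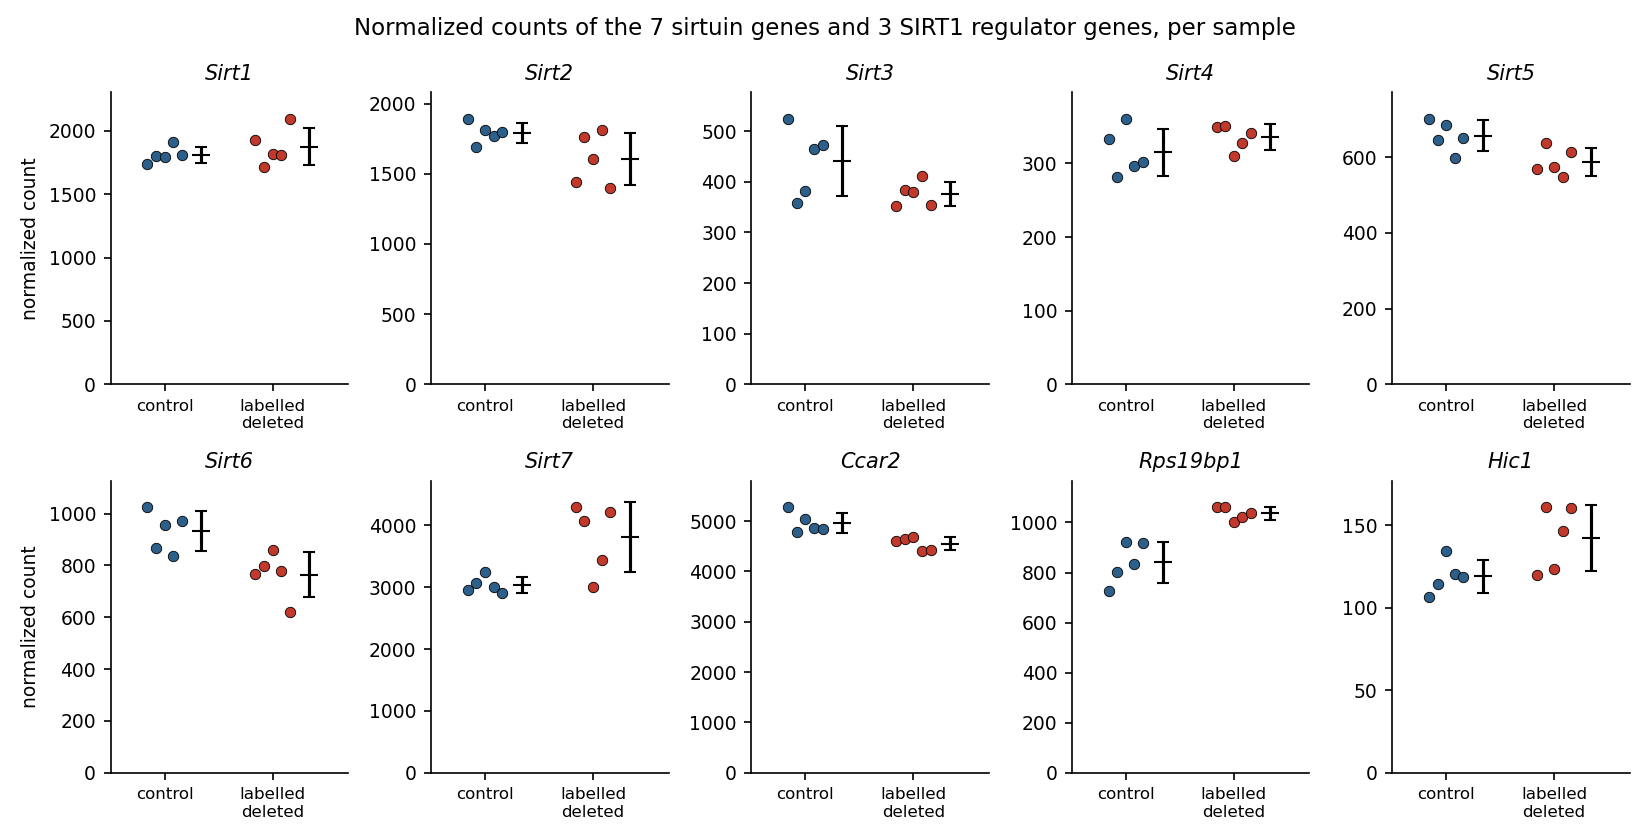
Normalized counts of each member per sample (vertical axes start at 0), with controls in blue, labelled Sirt1-deleted samples in red, and the mean ± SD of 5 samples beside each group. Points of Rps19bp1 and Ccar2 do not overlap between the groups, and those of Sirt1 interleave.

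Sirt1 (ENSMUSG00000020063.16, chr10:63319005-63381704, minus strand, GRCm38) was examined first, since it is the gene named by the label. In labelled Sirt1-deleted replicates 7, 8, 10, 11 and 12 its normalized counts were 1925, 1715, 1817, 1812 and 2097. In control replicates 2 to 6 they were 1735, 1803, 1796, 1909 and 1809.6. The groups overlapped, and the labelled group held both the highest and the lowest of the 10 values. The log2 difference was 0.05 (SE 0.06, 95% interval -0.08 to 0.17, limma adjusted p = 0.568, exact two-sided permutation p = 0.413). This small value was 0.0048 without labelled replicate 12 and 0.077 without labelled replicate 8, and it was 0.11 after quantile normalization and after upper-quartile rescaling, without passing the test in any of these fits. A fall of the gene-level Sirt1 transcript was thus not seen, and the lower end of the interval was -0.08. The value sums reads over the whole gene (14 exons in its longest coding transcript), and values per exon were not analysed here, so this is no check of a deletion that removes part of the transcript. The group is therefore called labelled Sirt1-deleted throughout, and directions below are those of the labelled groups.

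The nucleolar and chromatin-bound sirtuins moved in opposite directions. Sirt7 (ENSMUSG00000025138.14, chr11:120618372-120625240, minus strand) had normalized counts of 4298, 4079.5, 2998, 3434 and 4222 in labelled Sirt1-deleted replicates 7, 8, 10, 11 and 12. Control replicates 2 to 6 had 2955, 3066, 3255, 3010.4 and 2906. Replicates 7, 8 and 12 stood well above every control, replicate 11 was slightly above them, and replicate 10 lay among them. Sirt7 rose by 0.31 on the log2 scale (SE 0.09, 3806 ± 566 against 3038 ± 135, SD, n = 5 each, limma adjusted p = 0.0181, exact permutation p = 0.0317). The summed neutrophil markers of the same labelled replicates were 60145, 99982, 28974, 39751 and 44848, so that replicate 10 was lowest in both Sirt7 and these markers, and their part in the result was not tested. With 1 sample left out at a time, the Sirt7 difference ranged from 0.27 to 0.40 (limma adjusted p 0.00109 to 0.0477). Without labelled replicates 10 and 11 together it was 0.47 (limma adjusted p = 7.7e-05). Those 2 hold the lowest labelled Sirt7 values, so leaving them out had to enlarge the rise, and this fit adds no support. With an exact rank-sum test in place of limma, the adjusted p of Sirt7 was 0.124.

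Sirt6 (ENSMUSG00000034748.16, chr10:81621785-81627797, minus strand), whose product deacetylates histone H3 and is known for roles in DNA repair and glucose metabolism, measured 766, 799, 858, 777 and 621 in labelled Sirt1-deleted replicates 7, 8, 10, 11 and 12. In control replicates 2 to 6 it measured 1025, 868, 958, 838 and 972. All labelled samples except replicate 10 were below every control. Sirt6 fell by 0.29 on the log2 scale (SE 0.09, 764 ± 87.5 against 932 ± 77.1, SD, n = 5 each, limma adjusted p = 0.0239, exact permutation p = 0.0159). The call was lost without control replicate 2 (limma adjusted p = 0.0641), without control replicate 6 (limma adjusted p = 0.0528) and with the exact rank-sum test (adjusted p = 0.0512).

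Sirt2, the cytoplasmic family member (ENSMUSG00000015149.14, chr7:28766735-28788661, plus strand), had 1444, 1762, 1605, 1812 and 1399.8 normalized counts in labelled Sirt1-deleted replicates 7, 8, 10, 11 and 12. Control replicates 2 to 6 had 1894, 1691, 1814, 1767 and 1795. Labelled replicates 7, 10 and 12 were below every control while 8 and 11 lay within the control range. Its log2 difference of -0.17 (95% interval -0.33 to -0.0037) did not pass the test (limma adjusted p = 0.101, exact permutation p = 0.0714). It passed without labelled replicate 11, which had the highest labelled value (-0.21, limma adjusted p = 0.0383), and without labelled replicates 10 and 11 together (-0.23, limma adjusted p = 0.0298). Leaving out replicate 11 had to enlarge the fall, so these fits add no support.

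None of the 3 mitochondrial sirtuin genes passed the test in limma. Sirt3 (ENSMUSG00000025486.17, chr7:140863666-140882309, minus strand), the main mitochondrial deacetylase, ranged from 352 to 411 in the labelled Sirt1-deleted samples and from 357 to 525 in controls, where replicates 2, 5 and 6 were above every labelled sample. Its log2 difference was -0.22 (95% interval -0.45 to 0.02, limma adjusted p = 0.136). Sirt5 (ENSMUSG00000054021.6, chr13:43365496-43395203, plus strand), which removes succinyl, malonyl and glutaryl groups, ranged from 548 to 638 and from 599 to 703. Its log2 difference of -0.16 had an exact permutation p of 0.0397 but missed the threshold over all genes (limma adjusted p = 0.091). Sirt4 (ENSMUSG00000029524.16, chr5:115478010-115484725, minus strand), which acts on glutamate and leucine metabolism, ranged from 309 to 351 and from 282 to 361. Its log2 difference was 0.10 (95% interval -0.09 to 0.29, limma adjusted p = 0.414). The intervals of Sirt3 and Sirt5 include a change as large as the one called for Sirt6.

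**Figure D2:**
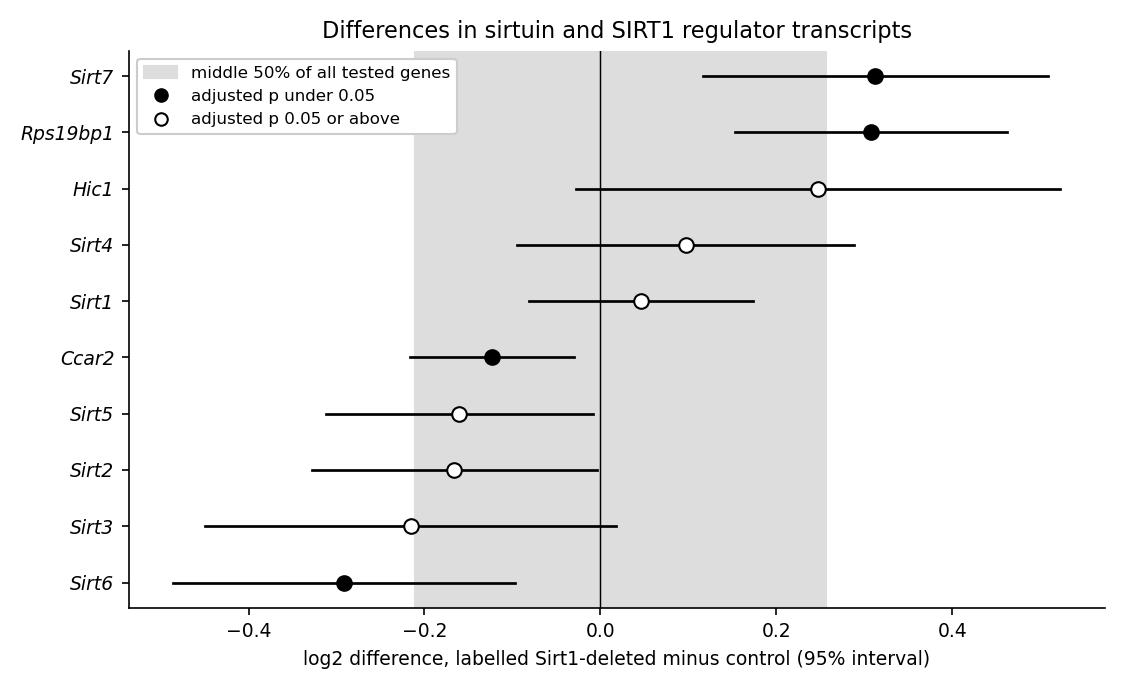
Log2 difference (horizontal axis, labelled Sirt1-deleted minus control) of each member with its 95% limma interval; filled points had an adjusted p under 0.05. The grey band, from -0.21 to 0.26, spans the lower to the upper quartile of the log2 differences of all tested genes; of the called members, Ccar2 lies inside it and Sirt6, Sirt7 and Rps19bp1 just outside.

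The transcripts of the SIRT1-binding proteins moved in opposite directions, the inhibitor down and the described activator up. Rps19bp1 (ENSMUSG00000051518.8, chr15:80260615-80264315, minus strand) had 1061, 1061, 1001, 1022 and 1039 normalized counts in labelled Sirt1-deleted replicates 7, 8, 10, 11 and 12, and 725, 803, 922, 834 and 919 in control replicates 2 to 6. Every labelled sample exceeded every control. Rps19bp1 rose by 0.31 on the log2 scale (SE 0.07, 1037 ± 25.9 against 841 ± 82.8, SD, n = 5 each, limma adjusted p = 0.00624, exact permutation p = 0.00794, the smallest this design gives). It was called under all 11 alternatives that changed the processing or left out replicates 10 and 11, and in each of 10 fits made with a single sample removed (adjusted p 0.00319 to 0.0331).

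Ccar2 (ENSMUSG00000033712.6, chr14:70138164-70153811, minus strand) had 4598, 4645, 4691, 4404 and 4429 normalized counts in labelled Sirt1-deleted replicates 7, 8, 10, 11 and 12. In control replicates 2 to 6 it had 5279, 4781, 5044, 4871 and 4835. Every labelled sample was below every control, by a narrow margin between 4691 and 4781. Ccar2 fell by 0.12 on the log2 scale (SE 0.04, 4554 ± 129 against 4962 ± 203, SD, n = 5 each, limma adjusted p = 0.041, exact permutation p = 0.00794). This small change depended on scaling: it was -0.06 (limma adjusted p = 0.243) after upper-quartile rescaling and -0.08 (limma adjusted p = 0.136) after quantile normalization, and the call was lost in 8 of the 10 fits that left out 1 sample.

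Hic1 (ENSMUSG00000043099.4, chr11:75164565-75169519, minus strand) was the lowest member. It had 120, 161, 124, 146 and 161 normalized counts in labelled Sirt1-deleted replicates 7, 8, 10, 11 and 12 and 107, 115, 135, 121 and 119 in control replicates 2 to 6. Labelled replicates 8, 11 and 12 were above every control, while 7 and 10 lay within the control range. Its log2 difference of 0.25 (95% interval -0.03 to 0.52) did not pass (limma adjusted p = 0.145, exact permutation p = 0.0556). After quantile normalization it was 0.11 (limma adjusted p = 0.552). Hic1 is known to be expressed in mesenchymal cells. The summed count of 8 stromal and endothelial markers was lower in the labelled Sirt1-deleted samples, 4904 to 5396 against 5663 to 6597, and 2 of the 6 tested were called as lower, the pericyte receptor gene Pdgfrb (-0.61) and the collagen gene Col1a2 (-0.54). The other 4 did not pass. The collagen genes Col1a1 and Col3a1 had log2 differences of 0.23 and 1.17, and the endothelial genes Pecam1 and Kdr -0.04 and -0.16. Col3a1 and Kdr were low, with control means of 4.18 and 14.8. Col3a1 ranged from 0.488 to 132 in the labelled Sirt1-deleted samples and from 1.63 to 10.1 in controls. Most of the sum came from Pecam1 (means of 3192 and 3252) and Pdgfrb (means of 1459 and 2170), so its difference was mostly that of Pdgfrb. The part of these cells in the Hic1 values was not tested. Pdgfra and Cdh5 were below the filter, and Pdgfra was at 0 in at least 1 sample.

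Ratios within a sample do not depend on scaling between samples, and 4 were computed. The ratio of Rps19bp1 to Sirt1 was 0.496 to 0.619 in the labelled Sirt1-deleted samples and 0.418 to 0.513 in controls. Its log2 value was higher by 0.26 (exact permutation p = 0.0238, adjusted over the 4 ratios 0.0476). Labelled replicate 12, which had the highest Sirt1, was the 1 labelled sample within the control range. Sirt1 itself differed by 0.05, so this ratio mostly repeats the rise of Rps19bp1 and is not independent of its call. The ratio of Sirt7 to Sirt6 was 5.61, 5.10, 3.49, 4.42 and 6.79 in labelled replicates 7, 8, 10, 11 and 12 and between 2.88 and 3.59 in controls. All labelled samples except replicate 10 exceeded every control, and the log2 ratio was higher by 0.60, or 1.52-fold (exact permutation p = 0.0238, adjusted 0.0476). This shift joins the rise of Sirt7 and the fall of Sirt6 given above, so it is not independent of those calls. The ratio of Ccar2 to Sirt1 was 2.11 to 2.71 against 2.55 to 3.04 (log2 difference -0.17, exact permutation p = 0.0556, adjusted 0.0741). That of Hic1 to Sirt1 was 0.0626 to 0.0945 against 0.0621 to 0.0755 (log2 difference 0.20, exact permutation p = 0.0952, adjusted 0.0952). When single samples were left out, the ratio of Rps19bp1 to Sirt1 missed the threshold in 9 of 10 cases and that of Sirt7 to Sirt6 in 7 of 10, with adjusted p up to 0.0952. The ratio of Ccar2 to Sirt1 passed without labelled replicate 8 (-0.21, adjusted exact permutation p = 0.0476), and that of Hic1 to Sirt1 was 0.12 without the same sample. Replicate 8 held the highest labelled ratio of Ccar2 to Sirt1, 2.71. Leaving it out had to enlarge that fall, so this pass adds no support.

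**Figure D3:**
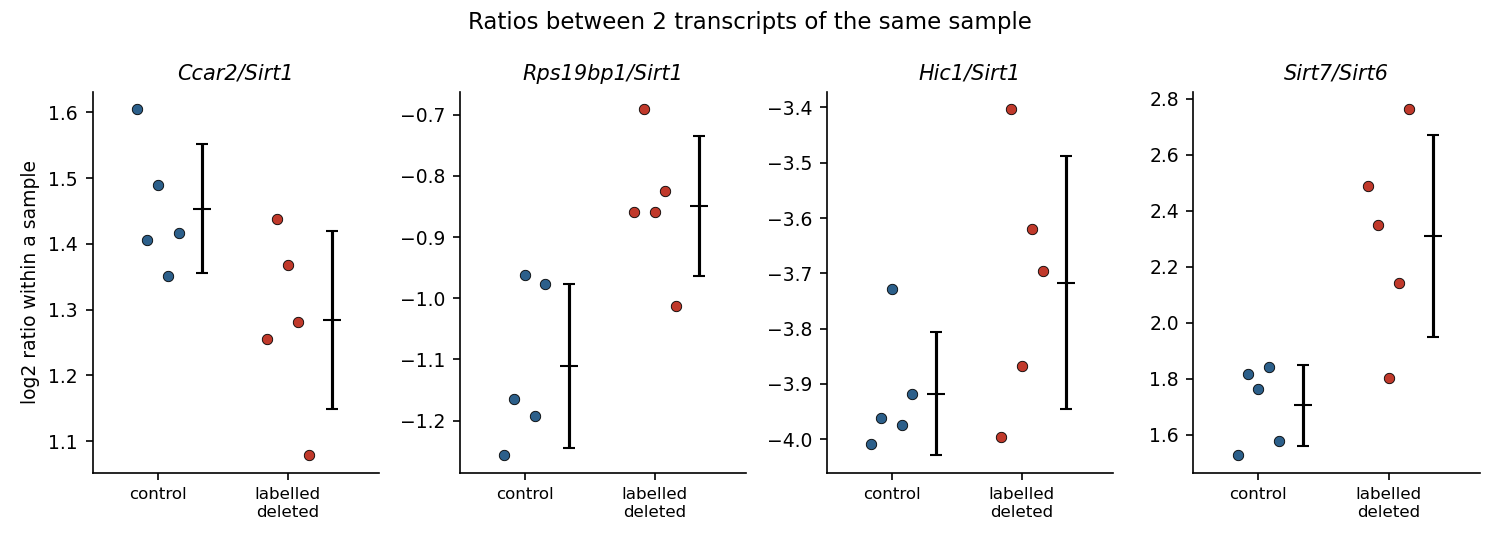
Log2 ratio of 2 transcripts of the same sample (vertical axes differ and do not start at 0), per sample, with the mean ± SD of 5 samples; controls are blue and labelled Sirt1-deleted samples red. The log2 ratio of Sirt7 to Sirt6, which joins the rise of 1 gene and the fall of the other, shows the largest shift, 0.60, and labelled replicate 10 lies at the level of the controls.

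Levels of different genes were compared per kilobase of the longest coding transcript in GENCODE M21. In controls the order was Sirt7, Ccar2, Rps19bp1, Sirt2, Sirt6, Sirt1, Sirt3, Sirt5, Sirt4 and Hic1. The median normalized count per kilobase of controls was 1743 for Sirt7, 1308 for Ccar2, 996 for Rps19bp1 and 848 for Sirt2. It was 507 for Sirt6, 407 for Sirt1, 289.6 for Sirt3, 269 for Sirt5, 168 for Sirt4 and 33.98 for Hic1, beside a median of 258 over 13856 tested genes with a coding length. Sirt1 was thus the 4th sirtuin by level, at a percentile of 60.4 among those genes, where Sirt7 was at 89.4. Among controls, the ranges of neighbours in this order overlapped for Rps19bp1 with Sirt2 and for Sirt3 with Sirt5, and the other neighbours did not overlap. In the labelled Sirt1-deleted samples the activator Rps19bp1 reached the level of the inhibitor Ccar2, at 1195 to 1267 against 1182 to 1259 per kilobase. In controls Rps19bp1 (866 to 1099.7) lay below Ccar2 (1283 to 1417). Whole transcript lengths were used, 0.838 kb for Rps19bp1 and 3.725 kb for Ccar2. No allowance was made for fragment length, which weighs more on short transcripts, so which of these genes is higher was not settled. Each has 1 coding transcript, so the median length leaves both unchanged. Taking the median length of coding transcripts kept the order in controls but brought Sirt1 (472), Sirt3 (423) and Sirt5 (421) close together.

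**Figure D4:**
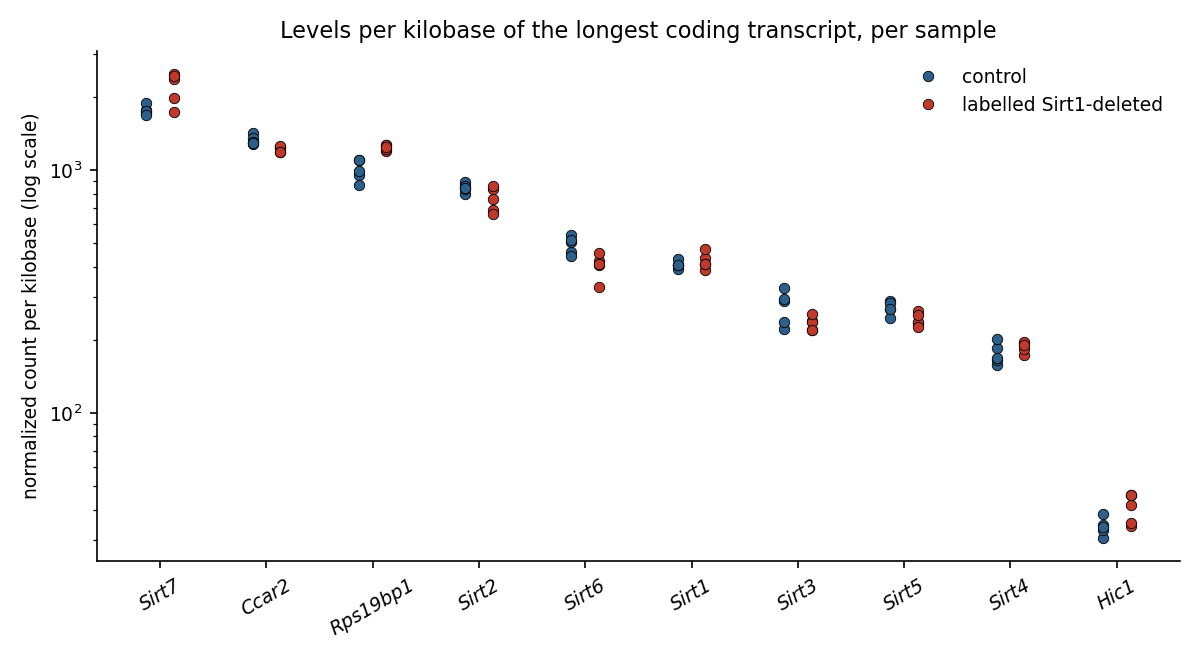
Normalized count per kilobase of the longest coding transcript (logarithmic vertical axis) for each member and sample, in the order of the control medians; controls are blue and labelled Sirt1-deleted samples red. Sirt7 is highest with a control median of 1743, Sirt1 lies mid-way at 407 and Hic1 is lowest at 33.98.

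The members also differed in how tightly they were held among samples of a group. Ccar2 varied little, with a coefficient of variation of 4.09% in controls and 2.84% in the labelled Sirt1-deleted samples. Its within-group SD on the log2 scale was at a percentile of 7.28 among 1662 tested genes of similar level (within 1.5-fold). Sirt7 was at a percentile of 88.2 among 2186 such genes, with 4.45% in controls and 14.9% in the labelled samples. Rps19bp1 showed the reverse, 9.85% in controls and 2.50% in the labelled samples, as did Sirt3 with 15.7% and 6.41%. For Sirt1 the values were 3.45% and 7.78%. These differences in spread were not tested.

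The genes whose profile over the 10 samples was most like that of Sirt1 were Dcaf13, AL731706.1 and Pot1b. DCAF13 is a ribosome biogenesis factor and substrate receptor of a ubiquitin ligase, and POT1B binds telomeric DNA. Likeness was the root mean square distance between log2 profiles centred on their own means, among 1699 tested genes with an SD close to that of Sirt1 (0.0841). The distances were 0.0337, 0.0460 and 0.0495, beside a median of 0.121, and Dcaf13 ranged from 1497 to 1843 normalized counts in the labelled Sirt1-deleted samples and from 1508 to 1634 in controls.

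The genomic neighbourhood of the members was described next, since genes that share bases can share reads and the strand setting of the count is not given in the sources used here. Exons of 4 members overlap those of another coding gene in the table. Sirt7 shares 124 exon bases with Mafg on the same strand, and Mafg, a small MAF transcription factor gene, ranged from 1580 to 1787 in the labelled Sirt1-deleted samples and from 1684 to 1954 in controls (log2 difference -0.08, limma adjusted p = 0.295). Sirt3 shares 418 bases with Ric8a and 342 with Psmd13, Ccar2 shares 43 with Bin3 and Sirt2 shares 42 with Nfkbib, all on the opposite strand, and these partners had log2 differences between -0.08 and 0.11 that did not pass. Sirt3 thus shared the most exon bases of the 10 members. Of the 17 tested nearest coding genes that lie on either side of the members without overlap, 11 were called, 6 as higher and 5 as lower, which is 64.7% beside 36.1% of all tested genes. The overlapping coding genes described above were not counted in this share, and none of them was called.

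On the side toward which Sirt7 is transcribed, Pcyt2, an enzyme gene of phosphatidylethanolamine synthesis, lies 436 bases away on the same strand. It rose by 0.40 (SE 0.05, 2865 to 3077 against 2173 to 2514, limma adjusted p = 3.90e-04), and its groups did not overlap. Beyond the 3′ end of Rps19bp1, Atf4, a stress-response transcription factor gene on the opposite strand, rose by 0.42 (8438 to 9827 against 5949 to 7391, limma adjusted p = 8.28e-04). Sirt1 lies between Herc4, a ubiquitin ligase gene that rose by 0.29 (limma adjusted p = 0.0084), and Dnajc12, a cochaperone gene that fell by 0.46 (limma adjusted p = 0.0262). Next to Sirt6, Ankrd24 rose by 0.40 (limma adjusted p = 0.016), while BC025920 had a difference of -0.04. Beside Sirt2, Rinl rose by 0.31, and beside Sirt3, Bet1l, which serves vesicle transport, rose by 0.28. Pxn, the paxillin gene near Sirt4, fell by 0.28, Gfod1 near Sirt5 fell by 0.50, Egr3, an early growth response gene near Ccar2, fell by 1.05 and Smg6, which serves nonsense-mediated decay and neighbours Hic1, fell by 0.16.

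**Figure D5:**
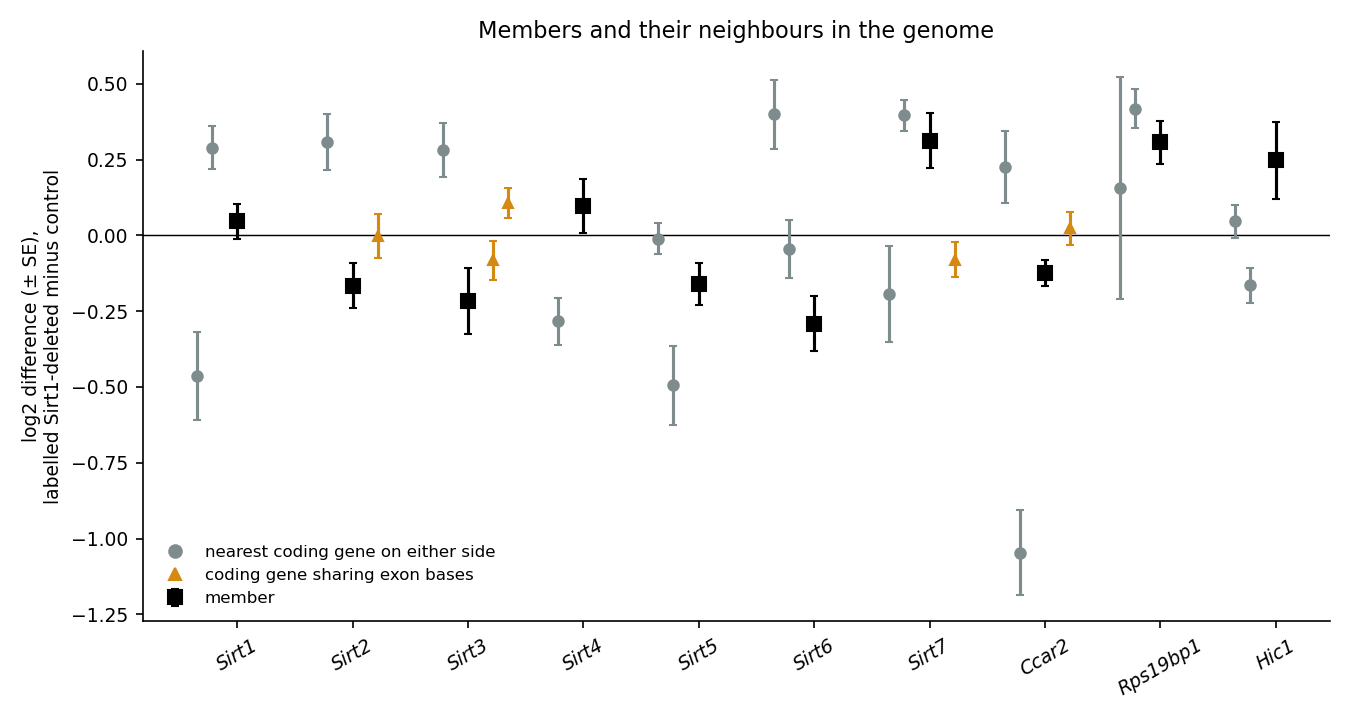
Log2 difference ± SE (vertical axis, labelled Sirt1-deleted minus control) of each member (black squares), of the nearest coding gene without overlap on either side where it was tested (grey circles) and of coding genes that share exon bases with it (orange triangles). The triangles lie between -0.08 and 0.11, and the lowest circle is Egr3 at -1.05.

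Genes that act on SIRT1 or are acted on by it were taken from lists drawn up by known function. They are described by counts beside the background of 36.1% called, which includes low genes. Of the 11762 genes with a mean of at least 50, 5125 were called, a larger share, with a median log2 difference of -0.04. Most list genes lie above that level, so the shares of the lists below are not read as raised. Of 20 transcription factors, modifying enzymes and partners known to act on Sirt1 or its product, 20 were tested, 1 rose and 8 fell (45.0%), with a median log2 difference of -0.15 beside -0.00014 over all tested genes. Usp22, a deubiquitinase gene whose product stabilizes SIRT1, fell by 0.56 (SE 0.09, 1569 to 2097 against 2458 to 3128, limma adjusted p = 9.82e-04). Creb1, a transcription factor that activates Sirt1, fell by 0.43 (4097 to 5433 against 5489 to 6716, limma adjusted p = 0.0025), and in neither gene did the groups overlap. Pparg, a nuclear receptor that represses Sirt1, rose by 0.94 from a low level (32.7 to 48.2 against 14.7 to 32.1, limma adjusted p = 0.00988). Pparg is also known from macrophages, whose markers were higher as given above, and their part was not tested.

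Among 38 genes for proteins that SIRT1 deacetylates, 36 were tested, 5 rose and 10 fell (41.7%), with a median log2 difference of -0.09. Tsc2, a brake on mTORC1, rose by 0.55 (2163 to 2745 against 1502 to 1864, limma adjusted p = 7.99e-04). Stk11, which encodes the kinase LKB1, rose by 0.37 (6825 to 8120 against 5323 to 6329, limma adjusted p = 9.82e-04). The DNA helicase gene Wrn fell by 0.54 (949 to 1323 against 1510 to 1904, limma adjusted p = 0.00177), and Rb1, the retinoblastoma gene, fell by 0.38 with overlapping groups (1084 to 1766 against 1512 to 2047, limma adjusted p = 0.0411). The lists of regulators and substrates share 3 genes.

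Of 13 genes for substrates of the mitochondrial sirtuins, 13 were tested, 0 rose in limma and 5 fell (38.5%), with a median log2 difference of -0.14. Acadl, the long-chain acyl-CoA dehydrogenase gene, fell by 0.56 (SE 0.05, 1976 to 2193 against 2929 to 3409, limma adjusted p = 9.12e-05), without overlap. Among 15 genes of NAD supply and use, 14 were tested, of which 6 rose and 1 fell, with a median log2 difference of 0.09. Naprt, the nicotinic acid branch enzyme gene, rose by 0.90 (206 to 325 against 121 to 151.3, limma adjusted p = 8.23e-04), and Cd38, the gene of a NAD-degrading ectoenzyme of immune cells, rose by 0.83 (122 to 209 against 76.0 to 107, limma adjusted p = 0.00371). Parp1, the poly-ADP-ribose polymerase gene, whose product competes with sirtuins for NAD, fell by 0.41 (7192 to 10210 against 10971 to 13348, limma adjusted p = 0.00485). The rises stood beside the higher neutrophil and macrophage marker sums given above, and the part of those cells was not tested.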

How the data were processed

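RNA of 10 leukemic spleens was sequenced from strand-specific libraries, per the labels' protocols. The submitters' processing notes name kallisto 0.44.0, DESeq and mm10. The deposited table holds the signal of each gene as counts that the authors divided by DESeq normalization factors, as its name states; annotation and strand setting are not given in the sources used here. It has 0 columns outside the 10 samples. Low values lay within 0.1 of a whole multiple of the commonest low value for 67.7% to 73.9% of entries, so raw counts were not recovered and no count test was run; the totals divided by that value give an approximate depth of 31.3 to 38.3 M reads.

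Log2(value + 1) was fitted with limma 3.58.1 (R 4.3.3, group as the only term, intensity trend) over 15276 genes with a mean of at least 10, with Benjamini-Hochberg adjustment. Exact two-sided permutation tests used the 252 assignments of 10 samples. On simulated data for 15276 genes, all 100 genes given a 2-fold change and 94 of 100 given a 1.5-fold change were recovered, with 9 false calls among 203. The spread of the simulated counts was set by rule and not taken from the data. The called members changed by at most 24.2%, and recovery of changes of that size was not measured. Gene models came from GENCODE M21 and promoters from RefSeq (GRCm38.p6), the same build as mm10; 9 of 10 members had a promoter entry.

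The members and lists were chosen with earlier results of these data known. Named genes are the 10 members, the 2 largest rises and 2 largest falls called in each list, the called nearest coding genes, and the 3 profiles closest to Sirt1 (SD over the samples from 0.8 of that of Sirt1 to its inverse). BC025920, the coding genes with shared exons, the marker Tcf7 and the other stromal and endothelial markers were named besides. A gene that this rule names is not reported here.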

Additional observations from a re-analysis of the deposited data

How the results depend on the processing

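No paired analysis was possible because no replicate number occurs in both groups. None of the differences of members or ratios changed direction under any alternative run. With an exact rank-sum test, 3659 genes and 2 members (Rps19bp1 and Ccar2) were called, against 5518 and 4 in limma; Sirt6 (-0.29, adjusted p = 0.0512) and Sirt7 (0.31, adjusted p = 0.124) lost their calls, and the cause was not tested. Ccar2 lost its call at a minimum mean of 1 (-0.12, limma adjusted p = 0.0613), with no filter (-0.12, limma adjusted p = 0.0617), with limma without trend (-0.12, limma adjusted p = 0.0674), after quantile normalization (-0.083), after upper-quartile rescaling (-0.064) and without labelled Sirt1-deleted replicates 10 and 11 (-0.12, limma adjusted p = 0.0564), where Sirt2 gained one (-0.23). Upper-quartile rescaling called 3162 genes as higher and 2272 as lower (58.2% higher), against 2562 and 2956 (46.4%) as deposited, and moved the median of all genes by 0.06; Rps19bp1 and Sirt7 stayed called as higher and Sirt6 as lower under it.

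Leaving out 1 sample gave 2 to 4 called members, 2 of them without control replicate 2 or control replicate 6. The log2 differences then ranged from -0.21 to -0.12 for Sirt2, from -0.33 to -0.22 for Sirt6 and from -0.14 to -0.10 for Ccar2, and, without a call in any fit, from 0.0048 to 0.077 for Sirt1, from -0.29 to -0.15 for Sirt3, from 0.06 to 0.15 for Sirt4, from -0.19 to -0.14 for Sirt5 and from 0.20 to 0.31 for Hic1. The log2 ratios ranged from -0.21 to -0.12 for Ccar2 to Sirt1, from 0.12 to 0.27 for Hic1 to Sirt1, from 0.22 to 0.30 for Rps19bp1 to Sirt1 and from 0.49 to 0.73 for Sirt7 to Sirt6. Ccar2 to Sirt1 gained a call in 1 of the 10 fits. The ratios of Rps19bp1 to Sirt1 and of Sirt7 to Sirt6 lost their calls in 9 and 7 of the 10 fits. With all 10 samples, both had an adjusted exact permutation p of 0.0476, close to the threshold. Of 28 sets of 5 values (members and ratios in each group), 0 had an extreme sample by Dixon's gap ratio at a critical value of 0.71, where chance gives 1.4.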
